A study of Mus musculus with 2 samples.

Results

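Extracellular vesicles (EVs), the membrane particles that cells shed into their medium, were examined here for miRNAs known from inflammatory responses: miR-132 and miR-212, miR-146a and miR-146b, miR-147, miR-203, and miR-221 and miR-222. The probes were chosen by name, as the main strand of each miRNA, by a rule that uses no measured value but was written with earlier results of these data known. The rule gave 8 of the 420 miRNA probes of the code set. It also names miR-155, for which the code set has no probe of that name. The EVs came from cultured primary cortical astrocytes of postnatal day 1 GFAP-EGFP mice, in which the promoter of the astrocyte gene GFAP drives a green fluorescent protein, and both groups shared this strain. Per the labels' protocols, the cultures were 98% GFAP-positive and used between passages 3 and 10, and each EV preparation pooled the medium of 8 to 10 flasks. The treated EVs were those collected 2 h after interleukin-1beta (IL-1β), a cytokine of brain inflammation, was added at 200 ng per ml, and the control EVs were, by their labels and the series' design text, those gathered over 24 h with no treatment. The treatment protocol in the labels is the same text for both samples and describes the IL-1β procedure only. Both groups were single samples, so treatment and length of collection cannot be told apart, no difference has a replicate check, and no p-value is given.

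A miRNA is a short RNA that guides Argonaute to messenger RNAs paired with its seed, near its 5′ end, and lowers their output. Nuclear factor κB, the transcription factor switched on by IL-1β and by Toll-like receptors, induces miR-146a, which in turn represses the adaptors Traf6 and Irak1 of the same pathway. The genes of miR-132 and miR-212 lie side by side and respond to CREB, and miR-132 rises both with neuronal activity and with inflammatory stimuli. The pair miR-221 and miR-222, also transcribed together, represses the cell cycle inhibitor Cdkn1b.

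The mature mouse sequences are shown because members of a pair share a seed, so that they are expected to read the same targets, while their 3′ parts differ. Sequences are RefSeq's (GRCm38.p6) for the arm that each probe name stands for, 5′ to 3′, with the seed (bases 2 to 8) in capitals; 7 of the 8 miRNAs matched.
miR-132-3p: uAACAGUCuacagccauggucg
miR-212-3p: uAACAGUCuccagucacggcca
miR-146a-5p: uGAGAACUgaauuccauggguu
miR-146b-5p: uGAGAACUgaauuccauaggcu
miR-203-3p: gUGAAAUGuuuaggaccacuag
miR-221-3p: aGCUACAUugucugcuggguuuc
miR-222-3p: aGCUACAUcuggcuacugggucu
The matched miRNAs fell into 4 seed groups. Counted from the 5′ end, miR-146b differs from miR-146a at 2 of 22 positions, G18A and U21C, and miR-212 from miR-132 at 5 of 22, A10C, C14U, U17C, U20C and G22A. By contrast, miR-221 and miR-222 differ at 12 of 23 positions. In the mouse genome miR-132 (chr11:75173723-75173744, plus strand) lies 258 bases from miR-212 (chr11:75173443-75173464), and miR-221 (chrX:19146307-19146329, minus strand) lies 571 bases from miR-222 (chrX:19146901-19146923). The genes of miR-146a (chr11:43374435-43374456, minus strand) and miR-146b (chr19:46342790-46342811, plus strand) are on different chromosomes, and miR-203 is at chr12:112130927-112130948 (plus strand). Among the 1738 mature mouse miRNAs of the RefSeq table, miR-1928 was the only further one with any of these 4 seeds, that of miR-221 and miR-222.

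EV RNA was read out on the NanoString nCounter, which counts colour-coded reporter probes hybridised to tagged small RNAs, on a code set designed for rat miRNAs. The 420 miRNA probes gave 13514 counts in all in treated EVs and 16812 in control EVs, with a median of 5 counts per probe in both. Background was read from the 8 negative-control probes of each sample, which ranged from 0 to 10 counts in treated EVs (mean 3.13) and from 1 to 5 in control EVs (mean 3.25). A probe was above background where it exceeded their mean + 2 SD, 9.67 and 6.41 counts. Intervals are exact Poisson or Clopper-Pearson intervals at 95% and cover counting error only. Ratios are IL-1β over control after scaling on the geometric mean of the 100 miRNA probes highest on average, whose treated level was 0.875 of the control level. The positive controls stood instead at 1.51 times the control, and the 4 mRNA probes of the code set gave 39568 counts against 1175.

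Of the 8 miRNAs, 3 were above background in treated EVs (miR-132, miR-221 and miR-222) and 4 in control EVs, where miR-146b joined them. The share above background over all 420 probes was 34.8% in treated EVs and 44.0% in control EVs, so that the 3 of 8 and 4 of 8 found here were near the code set's own rate. In the plot of raw counts by sample, miR-132 is the one miRNA whose counting intervals do not overlap between the samples, 1 of 8 where 32 of all 420 probes (7.62%) had such intervals. The 8 probes together gave 67 counts in treated EVs and 126 in control EVs, beside 25 and 26 for the equally many negative controls. They made up 0.496% (0.384 to 0.629) of the miRNA counts in treated EVs and 0.749% (0.625 to 0.892) in control EVs. Without miR-132, these shares were 0.400% (0.300 to 0.521) and 0.404% (0.314 to 0.512), while the summed counts were 54 and 68.

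**Figure D1:**
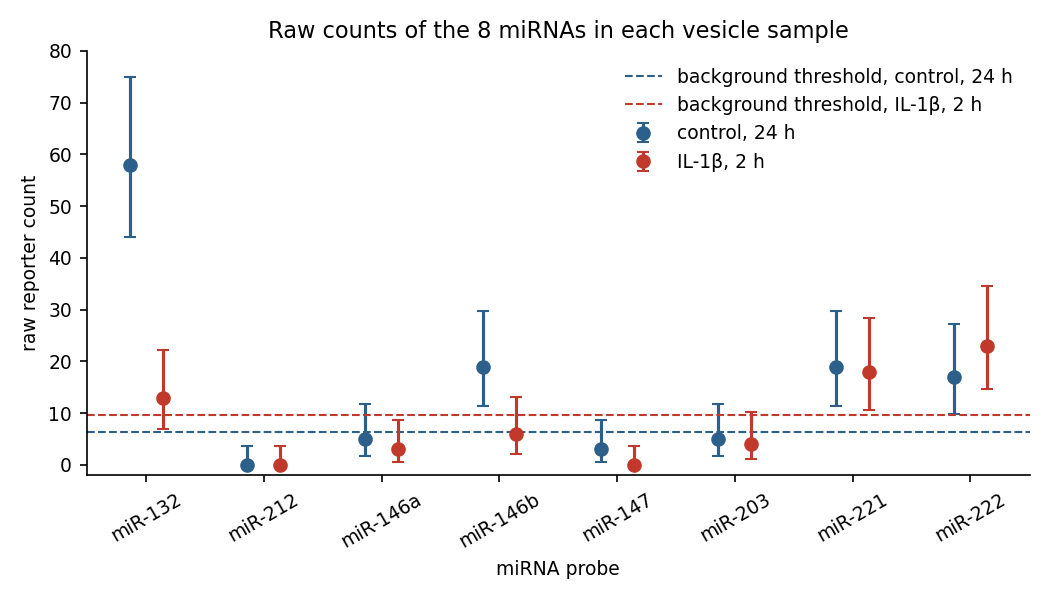
Raw reporter counts (vertical axis) of the 8 miRNA probes in control EVs (blue) and treated EVs (red), 1 sample each, with 95% Poisson intervals; dashed lines are the background thresholds of 6.41 and 9.67 counts. The control count of miR-132, 58, stands above all others, and miR-212, miR-146a, miR-147 and miR-203 lie below both lines.

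The difference that stood out was in miR-132, the activity- and inflammation-responsive miRNA that represses acetylcholinesterase and the GTPase regulator p250GAP. The probe rno-miR-132 had 13 counts in treated EVs (6.92 to 22.2) and 58 in control EVs (44.0 to 75.0). The highest negative control stood at 5 counts in the control sample but at 10 in the treated one, close to the 13 counts of miR-132 there. The ratio was 0.256 (0.129 to 0.473), a level 3.91-fold lower in treated EVs (2.11 to 7.77), and this was the 1 call among the 8 miRNAs. The call was lost with a fold minimum of 4 and with a background threshold taken from the probes whose miRNA number no mouse miRNA shares. The authors' deposited signals turn the direction of miR-132, with a log2 ratio of 0.20. Only 3 of the 8 had a ratio and 1 a bound, so that only these could be called. Over all miRNA probes with a ratio or a bound, 15 of 160 (9.38%) were called at least 2-fold lower. None of the 8 miRNAs was called higher in treated EVs, a direction called for 9 of the 160 (5.62%). Fewer vesicles that carry a miRNA and fewer copies per vesicle cannot be told apart in such pooled preparations.

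As a share of the miRNA counts, miR-132 was at 0.0962% in treated EVs (0.0512 to 0.164) and 0.345% in control EVs (0.262 to 0.446). It ranked 57th of 420 in the control and 126th in treated EVs, and its ratio was the 2nd lowest of the 139 probes above background in both samples. Its control count fell between those of the positive controls with nominal amounts of 2 (72 counts) and 0.5 (10 counts). In treated EVs it was close to the latter, which gave 12 counts there. In the raw counts the direction was the same under each scaling: the log2 ratio of -1.97 lay between -1.84 and -2.75 over the 5 other scalings, and the interval excluded 0 in each.

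The neighbour of miR-132, miR-212, which carries the same seed (AACAGUC), had 0 counts in both samples. A count of 0 allows up to 3.69 counts, or 0.0273% of the miRNA counts in treated EVs and 0.0219% in control EVs. All 8 negative controls of the control sample were above it, so miR-212 was not detectable at this depth while its neighbour gave 58 counts.

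By the size of the log2 ratio over the 2 samples, the probes nearest to miR-132 among the 136 others above background in both were miR-204, miR-30c and miR-1224. The first had 34 counts in treated EVs and 143 in control EVs, a log2 ratio of -1.88. For miR-30c the counts were 53 and 206 (-1.77), and for miR-1224 they were 86 and 473 (-2.27). With 2 samples such likeness is a single number and says nothing about a shared pattern.

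**Figure D2:**
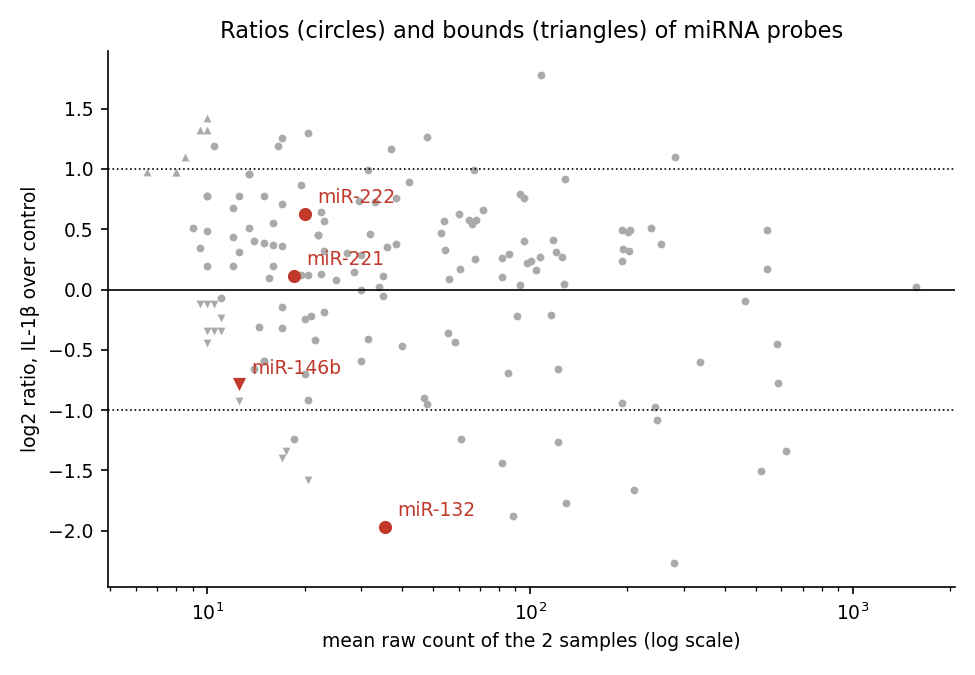
Log2 ratio of IL-1β over control (vertical axis) against the mean raw count of the 2 samples (log axis) for the 160 miRNA probes with a ratio (circles) or a bound (triangles), 1 sample per group; dotted lines mark 2-fold. Among the 4 labelled probes (red), miR-132 at -1.97 is past the lower line, and miR-146b (bound), miR-221 and miR-222 lie between the lines.

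Neither of the miR-146 pair, the feedback inhibitors of Toll-like receptor and IL-1 receptor signalling, was above background in treated EVs. The probe rno-miR-146a had 3 counts in treated EVs (0.619 to 8.77) and 5 in control EVs (1.62 to 11.7). Both counts lay inside the range of the negative controls, 5 of 8 of which were below it in treated EVs and 6 of 8 in the control. No fold is given for it, and from its control count a scaled rise of 2.21-fold would have been needed to reach the treated sample's threshold.

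The probe rno-miR-146b, for the member with the same seed (GAGAACU), had 6 counts in treated EVs (2.20 to 13.1) and 19 in control EVs (11.4 to 29.7). All 8 negative controls were below it in the control and 7 of 8 in treated EVs. Against the treated sample's threshold, and with its control count taken as exact, miR-146b was at least 1.72-fold lower in treated EVs, short of the 2-fold minimum. The counting interval of its scaled ratio ran from 0.118 to 0.940, so a difference close to none is allowed. This bound depended on scaling. With positive controls or the median ratio as the scale, it passed 2-fold (log2 bounds of -1.57 and -1.06). With total count or the 50 top probes it was weaker (-0.66 in each). There the counting interval included no change, with upper log2 limits of 0.03 and 0.04. The mature mouse sequences of miR-146a and miR-146b are identical at 20 of 22 positions, so part of the count of either may come from the other. Such cross-reading was not tested.

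The remaining single miRNAs were at background in both samples. For rno-miR-147, the probe of a miRNA induced by Toll-like receptor stimulation in mouse macrophages, the counts were 0 in treated EVs and 3 in control EVs. The count of 0 allows up to 3.69 counts, and the control count exceeded 2 of 8 negative controls. For rno-miR-203, the probe of a miRNA best known from the epidermis, where it restrains the stem cell factor p63, the counts were 4 in treated EVs (1.09 to 10.2) and 5 in control EVs (1.62 to 11.7). A rise of miR-147 to below 3.68-fold, or of miR-203 to below 2.21-fold, of its scaled control count would not have reached the threshold.

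The miR-221 and miR-222 pair, which shares the seed GCUACAU, was above background in both samples and was not called in either direction. The probe rno-miR-221 had 18 counts in treated EVs (10.7 to 28.4) and 19 in control EVs (11.4 to 29.7). Its ratio was 1.08 (0.536 to 2.18). The probe rno-miR-222 had 23 counts in treated EVs (14.6 to 34.5) and 17 in control EVs (9.90 to 27.2), a ratio of 1.55 (0.790 to 3.08). All 8 negative controls were below both probes in both samples. The intervals include 1, and they also include a 2-fold higher level of either miRNA, so these counts do not show that their levels were alike. The log2 ratio of miR-221 turned from 0.11 to -0.08 with no scaling, -0.16 with the median ratio and -0.67 with positive controls, and that of miR-222 turned from 0.63 to -0.16 with positive controls and to -0.32 with the authors' deposited signals. Within the pair, miR-222 gave 56.1% of the counts in treated EVs (39.7 to 71.5) and 47.2% in control EVs (30.4 to 64.5), again with overlapping intervals.

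A ratio between 2 probes within a sample does not depend on scaling. On that measure, miR-132 relative to miR-221 was 4.16-fold lower in treated than in control EVs (conditional estimate, 1.60 to 11.2). Relative to miR-222 it was 5.92-fold lower (2.33 to 15.8), and both intervals exclude 1. The relative raw levels of miR-132 and the miR-221 and miR-222 pair thus differed between these samples beyond counting error. The 13 treated counts of miR-132 were, however, close to the highest negative control there, 10. The authors' deposited ratios, 1.15 for miR-132, 1.28 for miR-221 and 0.8 for miR-222, do not show a lowering of this size. No such ratio is given for miR-146b, which was below background in treated EVs.

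The order of the raw counts also changed. In control EVs the order was miR-132 (58), miR-146b and miR-221 (19 each), miR-222 (17), miR-146a and miR-203 (5 each), miR-147 (3) and miR-212 (0). The steps from miR-132 to miR-146b and from miR-222 to miR-146a exceeded counting error, and the other neighbours did not differ beyond it. In treated EVs the order was miR-222 (23), miR-221 (18), miR-132 (13), miR-146b (6), miR-203 (4), miR-146a (3), and miR-147 and miR-212 (0 each). No neighbours there differed beyond counting error. Probes can differ in how well they tag and capture their miRNA, so these orders are of counts, not of molecules.

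**Figure D3:**
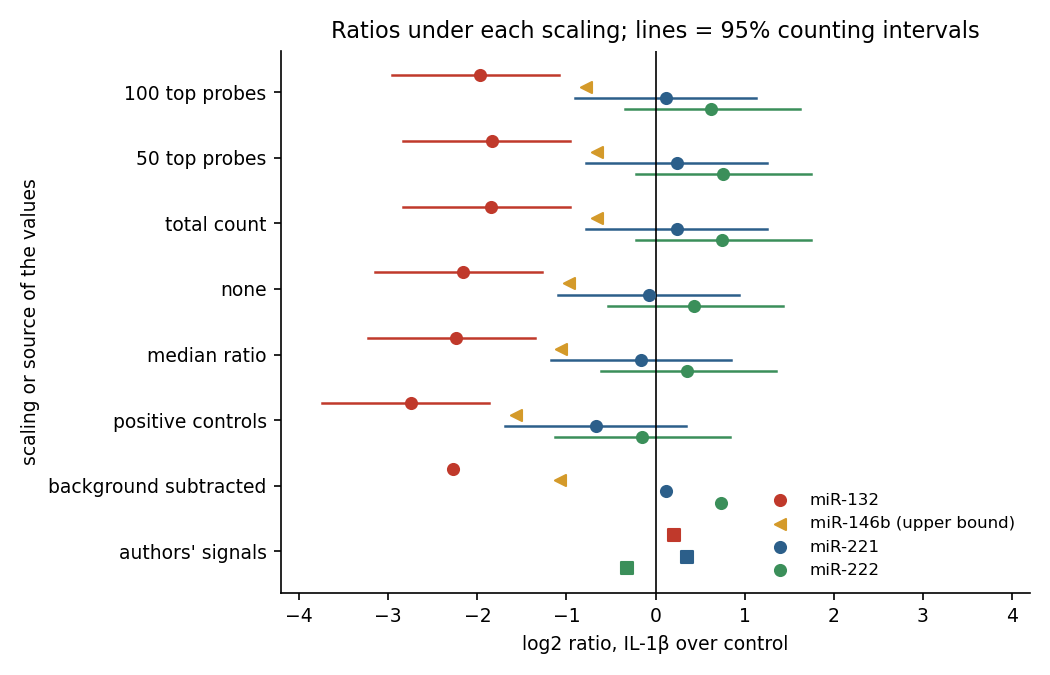
Log2 ratio of IL-1β over control (horizontal axis) for miR-132, miR-221 and miR-222, and the upper bound for miR-146b, under each scaling and from the authors' deposited signals (squares), 1 sample per group; lines are 95% counting intervals. The raw values of miR-132 stay between -1.84 and -2.75, while its deposited signals give 0.20.

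A second view of background came from the 69 probes whose miRNA number is shared by no mouse miRNA in RefSeq. These had a median of 15 counts in treated EVs and 13 in control EVs, above the negative controls, and 41 (59.4%) and 49 (71.0%) of them passed the thresholds. At or above the count of miR-132 were 37 of the 69 (53.6%) in treated EVs and 10 (14.5%) in control EVs. For miR-222, 23 of the 69 were at or above its count in treated EVs and 30 in control EVs. With the 95th percentile of these probes as the threshold (112 and 105 counts), 0 of the 8 miRNAs were above background in either sample, which ended the call of miR-132. What the counts of the 69 probes stand for, and whether the 8 probes share it, was not tested. The 5 spike-in probes, for RNAs of other organisms, gave 0 to 10 counts in treated EVs and 1 to 4 in control EVs.

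**Figure D4:**
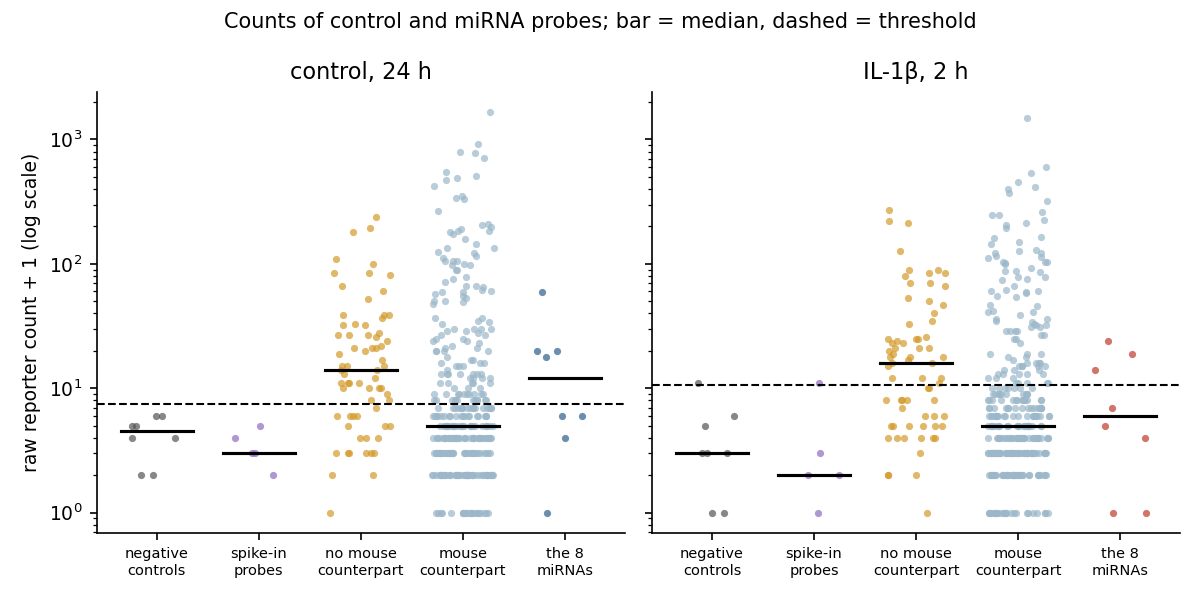
Raw count + 1 (log axis) of each negative control, spike-in probe, miRNA probe with no mouse counterpart, other miRNA probe and the 8 miRNAs, in control EVs (left) and treated EVs (right), 1 sample each; bars are medians and dashed lines the thresholds. The 8 miRNAs overlap the probes with no mouse counterpart, which reach 238 and 270 counts.

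A list of other miRNAs of inflammatory and myeloid responses, drawn from general knowledge, had 20 probes on the code set, of which 11 were above background in treated EVs and 12 in control EVs. Of the 11 list probes with a ratio (0 had a bound), 3 were called lower in treated EVs and 0 higher. Over all 160 probes with a ratio or a bound, 9.38% were called lower and 5.62% higher. The lower ones were miR-181a (ratio 0.352, with 244 counts in treated and 792 in control EVs), miR-27a (0.471) and miR-27b (0.369). Over the 11 probes with a ratio, the median log2 ratio was 0.02, against 0.27 over the 139 probes of the code set, and it turned below 0 with the positive-control, median-ratio and no scaling. The list's highest counts were those of miR-125b-5p (1478 and 1660), which is abundant in astrocytes, and of miR-125a-5p (537 and 545). The others with a ratio, none of them called, were miR-16 (ratio 1.12), miR-21 (0.740), miR-24 (1.43), miR-29a (1.26), miR-29b (1.99) and miR-142-3p (0.952), and miR-142-5p was above background in the control only (6 and 11 counts). Of 5 astrocyte and glial miRNAs matched by exact name, 4 were above background in both samples, and the fifth, miR-143, had 3 and 4 counts. A further one on that list, miR-449, has no probe of that exact name and was not counted. In treated and control EVs its probes gave 4 and 2 counts (miR-449a), 2 and 0 (miR-449c-5p) and 112 and 74 (miR-449c-3p). As markers of other cells, 0 of 5 neuronal miRNAs matched by exact name and 0 of 2 erythroid miRNAs were above background in either sample. The neuronal miR-218 has no probe of that exact name and was not counted. Its probes miR-218a (12 counts in both samples) and miR-218b (8 in treated, 12 in control EVs) are on the code set. The former was above background in both samples and the latter in control EVs only. Of the 5 microglial and leukocyte miRNAs, 1 passed in treated EVs and 2 in control EVs, with summed counts of 30 and 32. The endothelial miR-126 had 7 and 10 counts and was above background in control EVs only. The 2 oligodendrocyte probes gave 7 and 9 in sum, and miR-219-5p among them (6 and 8) passed in control EVs only. The 5 neuronal markers matched by exact name ranged from 0 to 5 counts in treated EVs and from 1 to 4 in control EVs. These lay within the range of the negative controls of each sample.

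The authors' deposited table of normalized signals lists 119 probes with a signal in both samples and 5 with one in the control only, and 4 of the 8 miRNAs are among the former. In the authors' deposited table miR-132 had a signal of 158.7 in treated EVs and 137.84 in control EVs, a listed ratio of 1.15. This is opposite in direction to the raw counts (13 and 58). The signal per raw count of miR-132 in the authors' deposited table was thus 12.2 in treated EVs and 2.38 in the control, beside medians of 4.19 and 2.35 over the listed probes. For miR-221, the authors' deposited table gives 48.42 and 37.8, a ratio of 1.28 in the direction of the raw ratio of 1.08. The authors' deposited table gives the same signals, 32.79 and 41.04, and the same ratio of 0.8 for miR-203 and for miR-222. This was the 1 pair among the 119 probes with both signals that shared both values, although the raw counts of miR-203 (4 and 5) and miR-222 (23 and 17) differ. Of the 119, 8.40% were at least 2-fold lower and 9.24% at least 2-fold higher in the authors' deposited table, and 0 of the 4 miRNAs were. The normalization behind these signals is not stated in the labels or file headers, so which of the values describes miR-132 and miR-222 better could not be settled.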

How the data were processed

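EV RNA of 2 samples, 1 per group, was counted on the NanoString nCounter. Per the file headers, the deposited raw files hold unnormalized reporter counts of a code set for rat miRNAs, at binding densities of 0.18 (IL-1β) and 0.13 (control). The authors also deposited a table of normalized signals with the ratio of the treated to the control signal, by a method that no label or header states. A second deposited table repeats those signals.

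Probes were matched by name without the factor suffix, which was 0 for all 8 miRNAs. Every miRNA that the rule found is named, with any other strand or family member on the code set (0 found), the members of the second list above background, and the 3 probes nearest to miR-132 in log2 ratio. The members and lists were chosen with earlier results of these data known. Background, scaling, bounds and calls (at least 2-fold, or bounded so, with an interval that excludes 1) follow the text, and no background was subtracted, which understates the change of low counts. The arm for each probe name was assigned from general knowledge. Python 3.11.15, NumPy 2.4.6 and SciPy 1.17.1 were used, and the rules were run on simulated Poisson counts with known fold changes. Such counts vary by counting error only, so that run cannot show how the rules behave with wider spread. Alternatives were other scalings, thresholds and fold minimums, background subtraction, and the deposited signals.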

Additional observations from a re-analysis of the deposited data

Results flagged for a closer look

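The 4 mRNA probes of the code set, which enter no comparison above, summed to 38.5-fold more counts in treated EVs than in control EVs on the scaling used for the miRNAs (39568 against 1175 counts). They were noted because they lie outside the miRNA measurement and stand far above the control sample. Their part in the miR-132 difference was not tested.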

How the results depend on the processing

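Each group held 1 sample, so no replicate could be left out. No paired analysis was possible because each group held 1 sample. Against the main scaling, the others moved every log2 ratio by -0.78 (positive controls), -0.27 (median ratio), -0.19 (none), 0.12 (total count) and 0.13 (50 top probes). The count of lower calls over all probes, 15, became 46 with positive controls and 24 with the median ratio, and the 9 higher calls became 0 and 2, with 4 for no scaling and 15 for total count and for 50 top probes. Among the 8 miRNAs, the 1 lower call became 2, with miR-146b joining miR-132, under positive-control or median-ratio scaling, background subtraction, a threshold of mean + 1 SD or a fold minimum of 1.5. It became 0 with a fold minimum of 4. With the threshold at the 95th percentile of the 69 probes lacking a mouse counterpart by number, 0 of the 8 miRNAs were above background in treated EVs and 0 in control EVs. None was called lower there. With mean + 1 SD, 6 were above background in control EVs. The authors' deposited signals reversed the log2 ratio of miR-132, at 0.20, and turned that of miR-222, which was not called, from 0.63 to -0.32, and the cause was not tested. No miRNA of the 8 was called higher under any alternative run. Counts of 3 to 5, those of miR-146a, miR-203 and, in control EVs, miR-147, lie within the negative controls' range. For miR-212 in both samples and miR-147 in treated EVs the count was 0. Depth thus limits what can be said of miR-146a, miR-147, miR-203 and miR-212.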
